A study of Mus musculus with 10 samples.

Results

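Astrocytes and Bergmann glia, the astrocyte-like cells that guide granule neurons through the cerebellar cortex, are described here through 32 genes that mark them, of 18193 genes named on the array. The list gives the genes by name, and its rule uses measured signal only to pick each gene's brightest probe set. The members were chosen with earlier results of these data known. All 32 were represented on the array, each by its brightest probe set over the 10 arrays. Of these, 31 passed the filter on low signals and were tested, and Gjb6 did not pass.

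RNA was measured on Affymetrix Mouse Genome arrays. It came from primary cultures of granule precursors of the mouse cerebellum, which divide in response to sonic hedgehog (Shh) before they become granule neurons. The groups were Bmi1 knockout with Shh (2 arrays, replicates 8 and 10), wild type with Shh (2, replicates 7 and 9), Bmi1 knockout untreated (3, replicates 2, 4 and 6) and wild type untreated (3, replicates 1, 3 and 5). Bmi1 is a subunit of Polycomb repressive complex PRC1, and the knockout is labelled only as such. All cultures came from pups of postnatal days 5 to 7 and were grown for 24 h in medium with 10% fetal calf serum and 20 mM KCl, after removal of the meninges and blood vessels. Shh was present for 24 h at a concentration labelled as 3 mg/ml. The labels do not say whether the 24 h with Shh lay within the 24 h of culture or came after it. It is therefore not known whether untreated cultures were kept as long as treated ones. Every Shh array also carries a higher number in its title than every untreated array, without a statement of what the number marks. Shh, time in culture and whatever these numbers stand for cannot be told apart. How many animals gave each culture is not stated.

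The labelled cell type was present on every array. Atoh1, the transcription factor that defines granule precursors, had signals of 1431 to 2256, and Zic1, another granule lineage factor, had 11191 to 14587. The hedgehog target Gli1 had signals of 1987 and 1550 in knockout cultures with Shh, against 1193, 1156 and 1199 in untreated ones, and 1665 and 1745 in wild type cultures with Shh, against 853, 764 and 857 in untreated ones. Bmi1 itself was not reduced in a way that checks the genotype labels. Its brighter probe set read 3432 and 3416 in knockout cultures with Shh, against 4515 and 4165 in wild type cultures with Shh, and 3416 to 3904 in untreated knockout cultures, against 3673 to 4253 in untreated wild type cultures. Its log2 difference was -0.34 with Shh (adjusted p = 0.301) and -0.13 without it (adjusted p = 0.802). The sources used here do not say which part of Bmi1 the knockout allele lacks, so the probe sets may lie outside it, and genotypes are given as labelled throughout.

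The arrays were scaled to a trimmed mean of 500. Their median signal lay at 66.6 to 72.1 on Shh arrays, against 84.4 to 90.9 on untreated arrays. The ribosomal 18S control was high on untreated knockout replicate 6 (6301) and untreated wild type replicate 1 (2030), against 219 to 649 on the others. Untreated wild type replicate 3, whose treatment note mentions Shh where applicable, was the highest of its 3 arrays for 29 of the 32 glial genes. Knockout replicate 8 was the higher of the 2 knockout arrays with Shh for 23 of 32. Without replicate 3, or without replicates 1 and 6 together, the same number of glial genes was lower with Shh in wild type cultures (25), and in knockout cultures 25 and 23 were lower.

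Glial cells of these types clear glutamate and GABA from synapses, take up potassium and water, supply glutamine and lipids, and couple to each other through gap junctions. Their identity is set during development by transcription factors such as Sox9 and Sox2, and gliogenic signals through Notch, BMP, FGF and STAT factors act on precursors in the embryonic and early postnatal brain. Vimentin and nestin are filaments of neural stem and immature glial cells, and glial fibrillary acidic protein rises in mature and in reactive astrocytes. Purified Bergmann glia are known for Gdf10, Slc1a3 and Fabp7.

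Most of the glial genes were lower in Shh-treated cultures of both genotypes. In knockout cultures 25 of the 31 tested genes fell with Shh and 2 rose, Gfap and Sox9, at a Benjamini-Hochberg adjusted p of 0.05 or less in limma. Over all 11405 genes tested in that comparison, 17.0% were lower and 11.0% were higher. In wild type cultures 25 of 31 fell, against 19.8% of all genes, and 1 rose, Sox9, which makes 26 changed genes, against 33.8% of all genes in either direction. The filter on low signals used the mean over all 10 arrays. Slc6a11 and Cldn10 in both genotypes, Fgfr3 in knockout, and Acsbg1 and Ntsr2 in wild type cultures had Shh means below its level of 6.25. These genes passed it through signals of other groups. Without the filter, 23 of 32 genes were lower in knockout and 25 in wild type cultures, and 0 were higher in either genotype. The median log2 difference over the 31 genes was -1.30 in knockout and -1.71 in wild type cultures, against -0.01 over all genes tested in each genotype. In these bulk samples, fewer glial cells and less of each RNA per glial cell cannot be told apart.

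The summed signal of the 32 genes was 68280 and 77042 in knockout cultures with Shh, against 118916 to 125360 in untreated knockout cultures. In wild type cultures with Shh it was 60907 and 63260, against 111033 to 137924 in untreated wild type cultures. The groups with and without Shh did not overlap in either genotype. A few bright probe sets carry most of this sum.

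**Figure D1:**
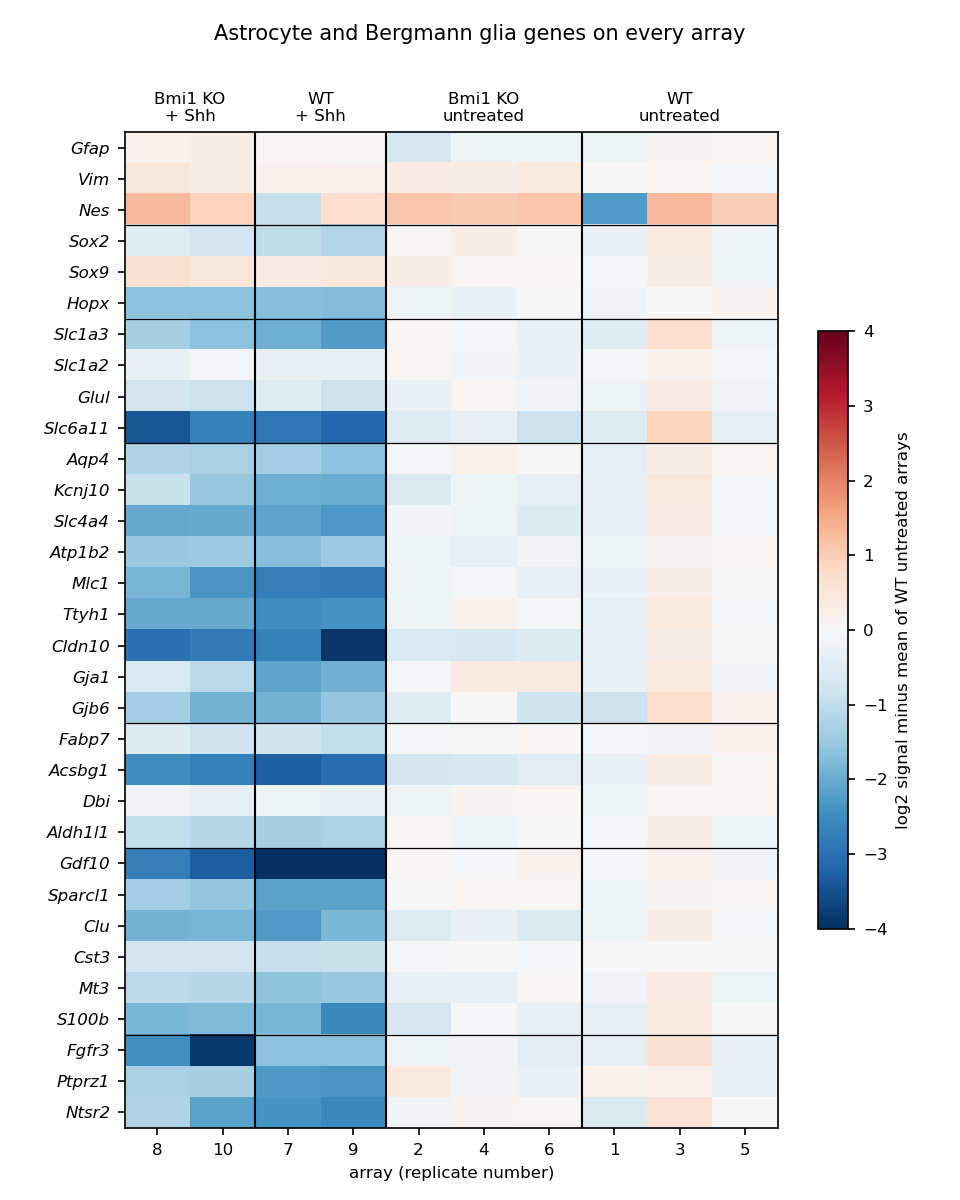
Each row is 1 of the 32 glial genes, grouped by role, and each column is 1 array, in the order knockout with Shh, wild type with Shh, knockout untreated, wild type untreated. Colour gives log2 signal minus the mean of the 3 untreated wild type arrays. The 4 Shh columns are below the untreated ones for most rows, while Gfap, Vim, Nes, Sox9, Slc1a2 and Dbi do not show it.

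The promoters of 3 genes are shown because these genes span the range of responses. Gdf10 fell most, Slc1a3 is the classical transporter of Bergmann glia, and Gfap did not fall. The sequences are the 250 bases before the start of the gene, on the strand of the gene, from RefSeq on build GRCm38.p6, with capitals marking matches to the motifs searched. The window of Gdf10 lies at chr14:33923337-33923586 on the plus strand, that of Slc1a3 at chr15:8710808-8711057 on the minus strand, and that of Gfap at chr11:102897201-102897450 on the minus strand.
Gdf10: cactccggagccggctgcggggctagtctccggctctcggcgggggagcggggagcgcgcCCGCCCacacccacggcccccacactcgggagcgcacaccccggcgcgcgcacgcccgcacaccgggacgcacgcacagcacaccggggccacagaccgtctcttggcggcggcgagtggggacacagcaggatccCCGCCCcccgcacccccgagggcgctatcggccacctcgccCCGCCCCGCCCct
Slc1a3: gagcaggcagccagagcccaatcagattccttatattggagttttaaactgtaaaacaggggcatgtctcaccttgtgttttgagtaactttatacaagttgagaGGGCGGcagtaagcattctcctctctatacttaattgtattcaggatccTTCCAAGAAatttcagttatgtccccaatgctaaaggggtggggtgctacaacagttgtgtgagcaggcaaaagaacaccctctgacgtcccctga
Gfap: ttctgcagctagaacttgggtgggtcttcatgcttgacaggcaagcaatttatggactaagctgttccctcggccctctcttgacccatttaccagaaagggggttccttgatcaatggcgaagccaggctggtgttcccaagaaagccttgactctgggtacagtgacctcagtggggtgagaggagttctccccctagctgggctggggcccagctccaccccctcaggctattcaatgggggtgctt

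Motifs were searched on both strands in the 27 glial genes that had a promoter in the table. The GC box, GGGCGG, lay in 14 of 27 (51.9%), against 32.7% of 32851 promoters of the same length. It occurs 4 times in the Gdf10 window and 1 time in that of Slc1a3. The STAT motif, TTCNNNGAA, lay in 3 of 27 (11.1%), those of Acsbg1, Ntsr2 and Slc1a3, against 7.02% of all promoters. The Gli motif, GACCACCCA, was in none of the 27 windows, against 0.225% of all promoters, and the Gfap window held none of these motifs. A match describes these letters in this window and nothing further.

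**Figure D2:**
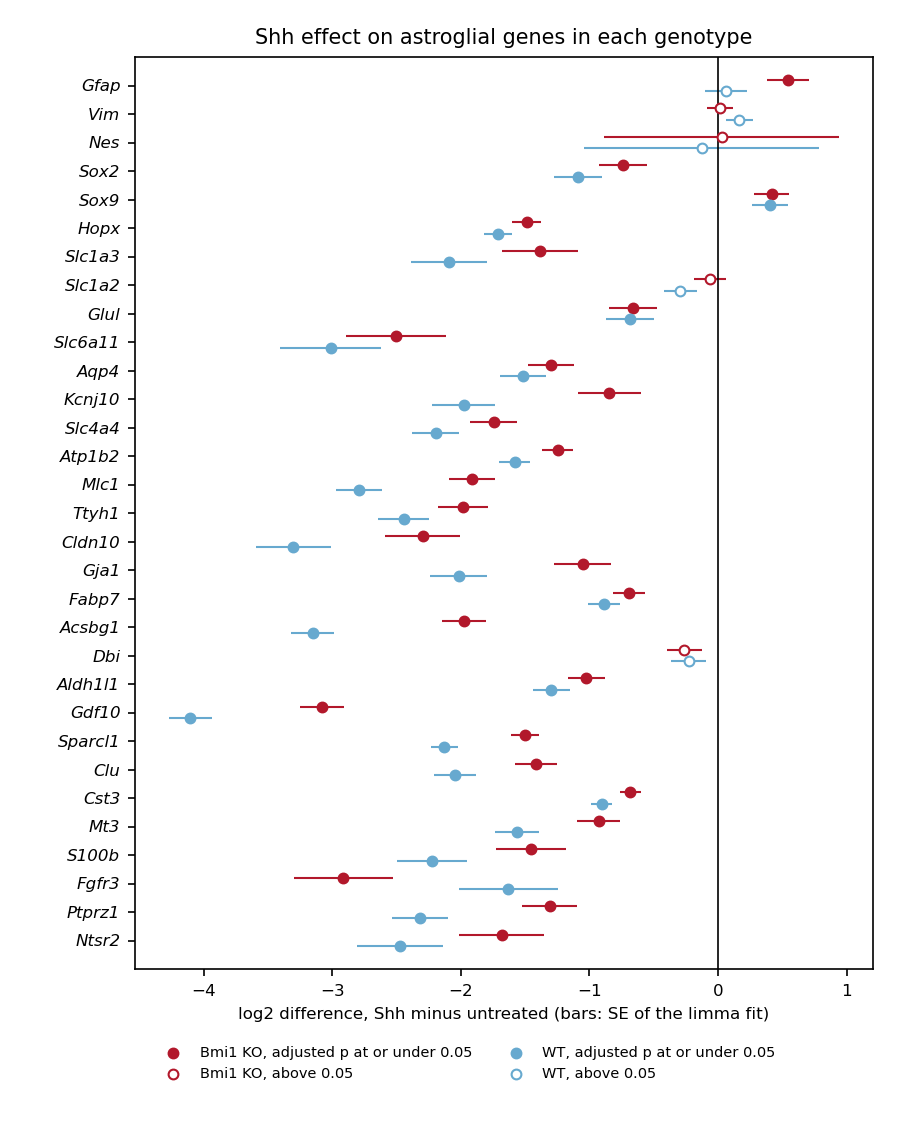
For each tested glial gene the dots give the log2 difference between Shh and untreated cultures, with its standard error, in knockout (red) and wild type (blue) cultures. Filled dots passed an adjusted p of 0.05. Most dots lie left of 0, from Gdf10 at -3.08 in knockout and -4.10 in wild type cultures to Gfap at 0.54 in knockout and Sox9 at 0.40 in wild type cultures.

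The filament genes did not share the fall. Gfap encodes the defining intermediate filament of astrocytes, and its per-array values, like those of the other genes of this paragraph and the next, were chosen for printing after they were seen. Gfap had signals of 2651 and 2847 in knockout cultures with Shh, against 1494, 2124 and 2110 in untreated knockout cultures. Both Shh arrays lay above all 3 untreated ones, a rise of 0.54 on the log2 scale (SE 0.17, adjusted p = 0.0372). Gfap in wild type cultures had 2540 and 2465 with Shh, against 2089, 2579 and 2555 without it, and the groups overlapped (log2 difference 0.06, 95% interval -0.31 to 0.44). The knockout call rests on few arrays. It was lost without replicate 2, 5, 7, 8, 9 or 10, at adjusted p up to 0.166, and without replicate 2, the lowest untreated array, the difference was 0.38. The Gfap call in knockout was also lost with quantile normalization (limma adjusted p = 0.0523) and without the filter on low signals (0.0758). The same held with only the arrays compared (0.0756) and with the mean of all probe sets (0.170). Vim, vimentin, had 15239 and 13112 in knockout cultures with Shh, against 13843, 13269 and 14854 in untreated ones, and the groups overlapped. Vim in wild type cultures had 12513 and 12693 with Shh, against 11159, 11933 and 10613 without. The wild type groups did not overlap, but the difference of 0.17 did not pass (adjusted p = 0.246). Nes, nestin, spread too widely to compare, since it read 24 on untreated wild type replicate 1, against 279 and 225 on the other two.

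The 3 transcription factors split. Sox9, which sets glial fate, read 1245 and 1112 in knockout cultures with Shh, against 961, 856 and 833 in untreated ones, and 1025 and 1117 in wild type cultures with Shh, against 767, 958 and 720 in untreated ones. The Shh arrays lay above the untreated ones in both genotypes, by 0.42 (SE 0.14, adjusted p = 0.0491) in knockout and 0.40 (SE 0.14, adjusted p = 0.0476) in wild type cultures. With consecutive arrays as a random block the adjusted p was 0.0597 in knockout and 0.0584 in wild type. The knockout call was lost in 8 of the 10 fits that left out 1 array, held only without replicate 3 or 5, and the wild type call held only without replicate 3. Without the filter on low signals, Sox9 passed in neither knockout (limma adjusted p = 0.0786) nor wild type cultures (0.0754). With the mean of all probe sets its knockout call was lost (0.169). Sox2, a factor of neural stem cells and astroglia, fell by 0.74 in knockout and by 1.09 in wild type cultures (adjusted p = 0.0182 and 0.00232). The knockout call of Sox2 was lost without replicate 4 or 10. Hopx, a homeodomain protein of neural stem cells and Bergmann glia, fell by 1.49 in knockout and by 1.71 in wild type cultures (SE 0.11 in each, adjusted p = 3.59e-05 and 1.23e-05).

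Of the 4 genes that handle glutamate and GABA, 3 fell in each genotype. Slc1a3 encodes the glutamate transporter GLAST, whose promoter is shown above. It had signals of 1843 and 1502 in knockout cultures with Shh, against 4819, 4486 and 3794 in untreated knockout cultures. Slc1a3 in wild type cultures had 1209 and 987 with Shh, against 3300, 7460 and 4097 without. The fall was 2.61-fold in knockout (adjusted p = 0.00816) and 4.26-fold in wild type cultures (adjusted p = 8.20e-04). Without replicate 10 the knockout difference no longer passed (adjusted p = 0.0616). Slc6a11, a glial GABA transporter, had 43.9 and 72.1 in knockout cultures with Shh, against 328, 379 and 261 in untreated ones. Slc6a11 in wild type cultures had 63.7 and 54.0 with Shh, against 333, 872 and 364 without. It fell 5.67-fold in knockout and 8.06-fold in wild type cultures (adjusted p = 0.00177 and 5.27e-04), with no overlap of the groups. Glul, glutamine synthetase, fell by 0.66 in knockout and 0.68 in wild type cultures on the log2 scale (adjusted p = 0.0287 and 0.0216). Glul lost its knockout call without replicate 4, 6, 8 or 10 and its wild type call without replicate 9. Slc1a2, the glutamate transporter GLT-1, did not pass in either genotype, at -0.06 (95% interval -0.34 to 0.22) in knockout and -0.29 (-0.58 to -0.01, adjusted p = 0.104) in wild type cultures.

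All 8 tested genes for water, ion and junction proteins fell in both genotypes, with a median of -1.52 in knockout and -2.11 in wild type cultures. Cldn10, a claudin, had 39.0 and 45.3 in knockout cultures with Shh, against 206, 199 and 214 in untreated ones. Cldn10 in wild type cultures had 47.7 and 7.76 with Shh, against 263, 371 and 309 without. The fitted fall was 4.91-fold in knockout cultures (adjusted p = 6.17e-04) and 9.86-fold in wild type cultures (adjusted p = 6.22e-05), where replicate 9 lay below the floor of 20.9 and was set to it. Mlc1, a membrane protein of astrocyte endfeet that takes part in volume regulation, had 246 and 177 in knockout cultures with Shh, against 792, 861 and 706 in untreated ones. Mlc1 in wild type cultures had 131 and 127 with Shh, against 752, 1071 and 884 without, falls of 3.76-fold in knockout and 6.94-fold in wild type cultures (adjusted p = 1.29e-04 and 1.23e-05).

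Ttyh1, a tweety-family anion channel protein, had 604 and 601 in knockout cultures with Shh, against 2177, 2703 and 2291 in untreated ones. Ttyh1 in wild type cultures had 435 and 460 with Shh, against 1886, 3216 and 2378 without. The replicates with Shh lay close together, and the falls were 3.95-fold in knockout and 5.44-fold in wild type cultures (adjusted p = 1.69e-04 and 3.51e-05). Slc4a4, a sodium bicarbonate cotransporter, had 485 and 492 in knockout cultures with Shh, against 1846, 1728 and 1378 in untreated ones. Slc4a4 in wild type cultures had 467 and 407 with Shh, against 1658, 2513 and 1914 without. It fell 3.35-fold in knockout and 4.58-fold in wild type cultures (adjusted p = 2.42e-04 and 4.58e-05).

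The other tested genes of this group fell less in fold. Aqp4, the water channel of endfeet, fell by 1.30 in knockout and 1.52 in wild type cultures on the log2 scale. Atp1b2, a sodium pump subunit, fell by 1.25 in knockout and 1.58 in wild type cultures. Kcnj10, the inward rectifier that buffers potassium, fell by 0.84 in knockout (adjusted p = 0.0305) and 1.98 in wild type cultures, and its knockout call was lost without replicate 4, 6 or 10. Gja1, the main connexin of astrocyte gap junctions, fell by 1.05 in knockout (adjusted p = 0.00781) and 2.02 in wild type cultures, and the knockout call was lost without replicate 10. The genes called in knockout cultures had 35 further probe sets, of which 27 passed the filter on low signals. Of these 27, 26 went the same way as the gene, and the exception was 1 of 5 further probe sets of Gja1. Of the 8 dimmer ones, 5 went the same way and 3 showed no difference. In wild type cultures 25 of 33 passed the filter and all 25 went the same way, while of the 8 dimmer ones 6 did so and 2 went the other way, those of Slc6a11 and Slc4a4. Gjb6, a second astrocyte connexin, had the lowest signals and was not tested. It read 29.9 and 16.0 in knockout cultures with Shh, against 56.0, 77.0 and 44.9 in untreated ones, and 2.51 and 26.3 in wild type cultures with Shh, against 42.8, 124 and 87.5 in untreated ones. The Shh arrays were the lower ones in each genotype.

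Of the 4 genes of lipid and one-carbon metabolism, 3 fell in each genotype. Fabp7, the brain lipid-binding protein of radial and Bergmann glia, had 11149 and 9138 in knockout cultures with Shh, against 15815, 16310 and 16833 in untreated ones. Fabp7 in wild type cultures had 9356 and 8165 with Shh, against 15435, 15138 and 18098 without. The falls were 1.62-fold and 1.85-fold in knockout and wild type cultures (adjusted p = 0.00358 and 7.89e-04). Acsbg1, an acyl-CoA synthetase of glia, had 113 and 95.7 in knockout cultures with Shh, against 374, 397 and 458 in untreated ones. Acsbg1 in wild type cultures had 65.2 and 75.5 with Shh, against 507, 736 and 651 without. It fell 3.93-fold in knockout and 8.89-fold in wild type cultures (adjusted p = 7.89e-05 and 4.30e-06). Aldh1l1, a folate enzyme much used as an astrocyte marker, fell by 1.02 in knockout and 1.30 in wild type cultures. Dbi, the acyl-CoA-binding protein, did not pass, at -0.26 (95% interval -0.57 to 0.05) in knockout and -0.23 (-0.54 to 0.08) in wild type cultures.

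All 6 genes for secreted and metal-binding proteins fell in both genotypes, with a median of -1.43 in knockout and -2.09 in wild type cultures. Gdf10, a secreted TGF-beta family protein of Bergmann glia, had 852 and 576 in knockout cultures with Shh, against 6027, 5547 and 6209 in untreated ones. Gdf10 in wild type cultures had 309 and 353 with Shh, against 5403, 6457 and 5242 without. The untreated arrays lay close together, and Shh arrays held a small part of their signal. The fall was 8.45-fold in knockout cultures (adjusted p = 6.68e-06) and 17.2-fold in wild type cultures (adjusted p = 9.48e-07), with a log2 SE of 0.17 in each.

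Sparcl1, or hevin, a secreted protein that promotes synapse formation, had 4130 and 3703 in knockout cultures with Shh, against 10927, 11165 and 11112 in untreated ones. Sparcl1 in wild type cultures had 2451 and 2452 with Shh, against 9560, 11528 and 11191 without. The falls were 2.83-fold in knockout and 4.37-fold in wild type cultures (adjusted p = 2.83e-05 and 2.94e-06). Clu, the secreted chaperone clusterin, had 466 and 478 in knockout cultures with Shh, against 1203, 1429 and 1160 in untreated ones. Clu in wild type cultures had 359 and 485 with Shh, against 1529, 2002 and 1654 without. It fell 2.67-fold in knockout and 4.12-fold in wild type cultures (adjusted p = 3.92e-04 and 3.49e-05).

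S100b, a calcium-binding protein of astrocytes, had 334 and 353 in knockout cultures with Shh, against 746, 1141 and 977 in untreated ones. S100b in wild type cultures had 329 and 197 with Shh, against 920, 1545 and 1184 without. It fell 2.74-fold in knockout and 4.67-fold in wild type cultures (adjusted p = 0.00435 and 3.75e-04). Cst3, the protease inhibitor cystatin C, fell by 0.68 in knockout and 0.90 in wild type cultures on the log2 scale. Mt3, a metallothionein of the brain, fell by 0.93 in knockout and 1.57 in wild type cultures.

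All 3 receptors fell in both genotypes. Ptprz1, a receptor tyrosine phosphatase of glial precursors, had 1021 and 1011 in knockout cultures with Shh, against 3344, 2292 and 2078 in untreated ones. Ptprz1 in wild type cultures had 511 and 498 with Shh, against 2784, 2871 and 1987 without. It fell 2.48-fold in knockout and 4.98-fold in wild type cultures (adjusted p = 0.00225 and 8.23e-05). Ntsr2, a neurotensin receptor of astrocytes, had 169 and 89.2 in knockout cultures with Shh, against 358, 421 and 404 in untreated ones. Ntsr2 in wild type cultures had 75.7 and 65.3 with Shh, against 264, 584 and 385 without. It fell 3.21-fold in knockout and 5.55-fold in wild type cultures (adjusted p = 0.00549 and 6.13e-04).

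Fgfr3, a fibroblast growth factor receptor of astrocytes, was the only gene that fell in both genotypes with the larger value in knockout cultures, and the difference between the 2 falls did not pass (adjusted p = 0.992). It had 54.8 and 15.7 in knockout cultures with Shh, against 269, 277 and 222 in untreated ones. Fgfr3 in wild type cultures had 97.4 and 98.0 with Shh, against 235, 458 and 257 without. The fitted fall was 7.53-fold in knockout cultures (adjusted p = 7.48e-04), where replicate 10 lay below the floor and was set to it, and 3.10-fold in wild type cultures (adjusted p = 0.0110). The wild type call was lost without replicate 7 or 9, at adjusted p up to 0.0570.

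With Shh present, most of the glial genes read higher in cultures labelled knockout than in those labelled wild type, and few passed the test. The log2 difference between knockout and wild type was above 0 for 27 of 31 genes, against 53.5% of all genes, with a median of 0.27 against 0.01. With the mean of all probe sets of a gene, 22 of 29 genes were above 0. Both knockout arrays lay above both wild type arrays for 22 of 31 genes, against 22.3% of all genes, and below for 1, Fgfr3, against 16.8%. Gdf10 and Sparcl1 passed the adjusted threshold, against 0.614% of all genes higher, and none of the 31 was lower (0.114% of all genes). At an unadjusted p of 0.05, 8 genes were higher (6.49% of all genes) and 1 lower (3.27%).

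Gdf10 was 2.12-fold higher in knockout cultures with Shh (852 and 576, against 309 and 353 in wild type cultures with Shh), a log2 difference of 1.09 (SE 0.18, adjusted p = 0.0373). Sparcl1 was 1.60-fold higher (4130 and 3703, against 2451 and 2452), a difference of 0.67 (SE 0.12, adjusted p = 0.0380). With consecutive arrays as a block neither passed, at adjusted p of 0.121 for Gdf10 and 0.0794 for Sparcl1, and 0.359% of all genes were higher. Each was kept in only 2 of the 10 fits that left out 1 array. Gdf10 held without replicate 3 or 10 and was at adjusted p up to 0.159 in the others, and Sparcl1 held without replicate 1 or 3 and was at up to 0.200.

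The genes next in line did not pass. Gja1 read 2753 and 1995 in knockout cultures with Shh, against 963 and 1109 in wild type cultures with Shh (log2 difference 1.18, SE 0.24, adjusted p = 0.0845). All 5 further probe sets of Gja1 also read higher in knockout. Those of other genes, where they passed the filter, went both ways. Ptprz1 had 0.98 and 0.96, Slc1a3 had 0.14, -0.00337 and 0.23, and Slc4a4 had -0.67 and 0.31. Atp1b2 had -0.39 and Hopx -0.14. The differences were 1.01 for Ptprz1 (adjusted p = 0.122), 0.80 for Ntsr2 (0.525), 0.78 for Kcnj10 (0.331), 0.70 for Mlc1 (0.208), 0.61 for Slc1a3 (0.611) and 0.57 for Acsbg1 (0.292). Fgfr3 went the other way, at -1.53 (SE 0.42, adjusted p = 0.195). Gfap, Vim and Sox9 were at 0.13, 0.17 and 0.14.

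Markers of other cell types also differed between the genotypes on these arrays, and their part in the glial values was not tested. With Shh, 6 of 8 markers of GABAergic interneurons were above 0, with a median of 0.76, and 1 passed as higher in knockout, the glycine transporter gene Slc6a5 (1.60, adjusted p = 0.0165 in limma, 0.0694 in the blocked fit). Their 8 genes summed to 5976 and 6528 in knockout cultures with Shh, against 4714 and 5151 in wild type cultures with Shh. Averaged over both conditions, 4 of these 8 were higher in knockout, against 1.54% of all genes in either direction. All 18 tested microglial markers were below 0 with Shh, with a median of -0.39, and 1 passed as lower, the complement gene C1qa (-1.25, adjusted p = 0.0111), with 2 in the blocked fit. Averaged over both conditions, 3 of the 18 were lower, against the same 1.54% of all genes in either direction. The median of 12 oligodendrocyte lineage genes was 0.57 with Shh, and 3 passed as higher in knockout.

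**Figure D3:**
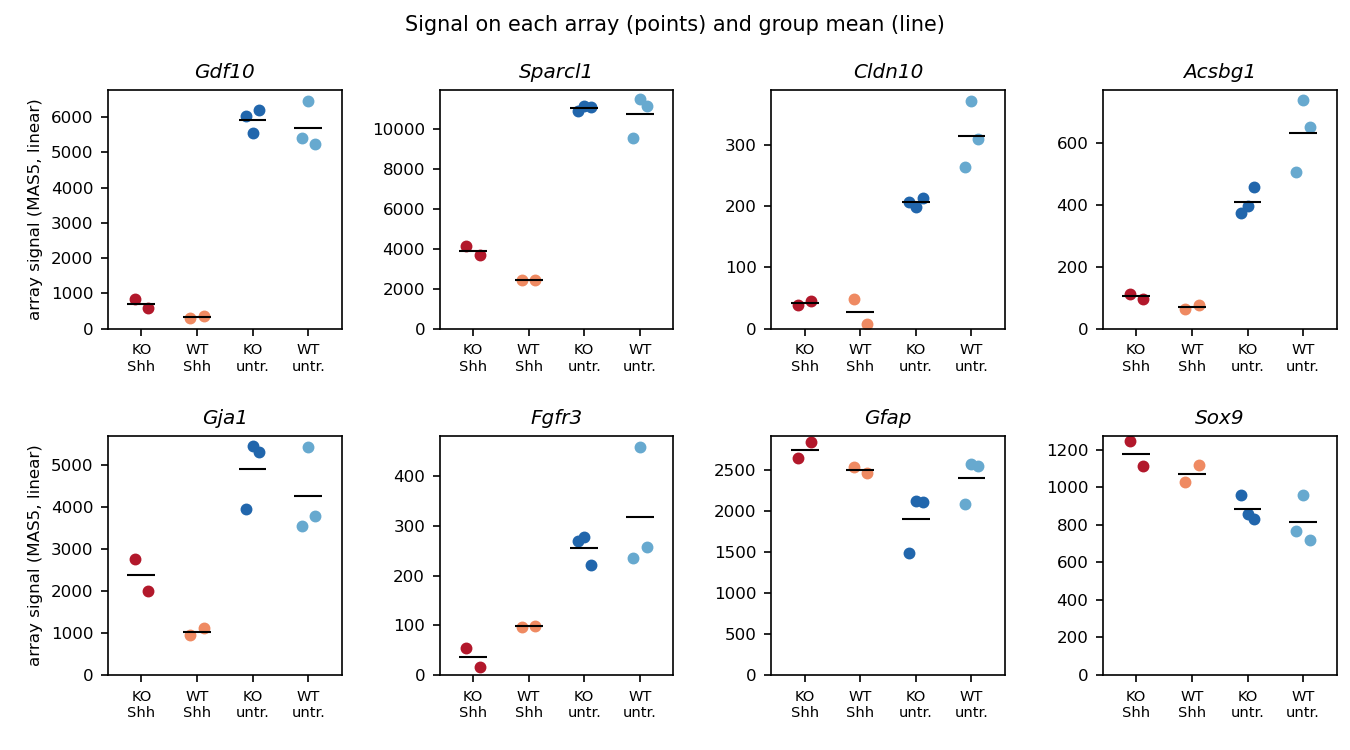
Panels show the signal of 8 glial genes on every array on a linear axis that starts at 0, with groups in the order knockout with Shh, wild type with Shh, knockout untreated, wild type untreated, and a line at each group mean. Gdf10, Sparcl1 and Gja1 show the knockout points above the wild type points with Shh, and Fgfr3 shows them below. Sox9 shows the Shh points above the untreated ones in each genotype, and Gfap shows this in knockout cultures.

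Between untreated cultures of the 2 genotypes, none of the 31 genes passed the adjusted threshold in limma, against 0.377% of all genes in either direction, or in the blocked fit, against 0.184% of all genes higher and 0.0175% lower. At an unadjusted p of 0.05, 1 gene, Vim, was higher (4.98% of all genes) and 4 were lower (3.70%), namely Acsbg1, Clu, Gfap and Cldn10. The median difference was -0.09, with 12 of 31 above 0, against 55.6% of all genes. Its sign rests on single arrays, since the median was 0.04 without wild type replicate 3 (16 of 31 above 0) and -0.22 without wild type replicate 1 (6 of 31). All 3 untreated knockout arrays lay below all 3 wild type arrays for Acsbg1 (374, 397 and 458, against 507, 736 and 651), Clu and Cldn10, and above them for Vim. That is 3 of 31 genes lower without overlap, against 5.73% of all genes, and 1 higher, against 7.62%. Gdf10 and Sparcl1 were at 0.06 (95% interval -0.28 to 0.40) and 0.05 (-0.17 to 0.26) without Shh. Averaged over both conditions, no gene of the 31 passed, against 1.54% of all genes. Sparcl1 (0.36, adjusted p = 0.0555) and Gdf10 (0.57, adjusted p = 0.0562) lay nearest, and 5 genes were higher and 1 lower at an unadjusted p of 0.05, against 8.21% and 4.76% of all genes. Without untreated wild type replicate 3, 3 of the 31 passed, against 219 of all 11405 genes.

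**Figure D4:**
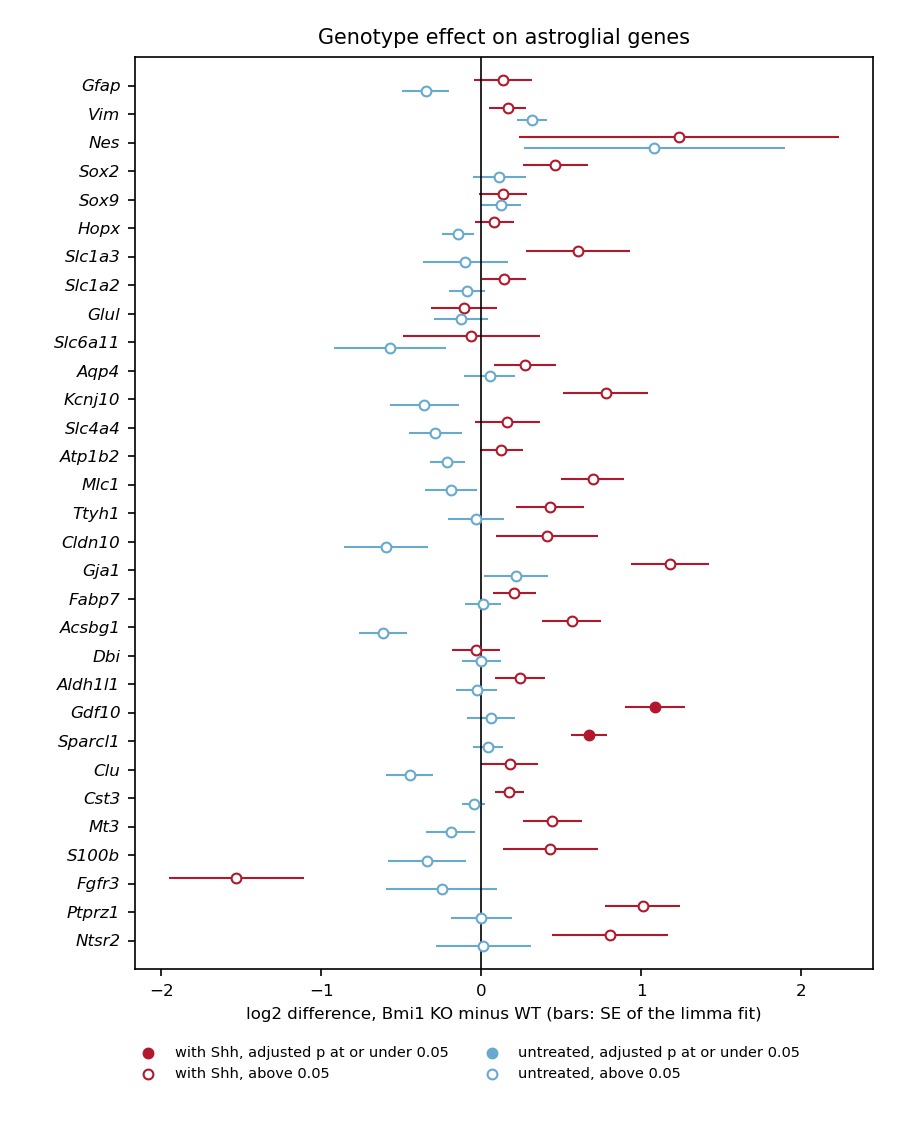
For each tested glial gene the dots give the log2 difference between knockout and wild type cultures, with its standard error, with Shh and without it. Filled dots passed an adjusted p of 0.05, which were Gdf10 and Sparcl1 with Shh. Dots with Shh lie mostly right of 0 and untreated dots scatter about it.

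The Shh response itself was compared between genotypes as an interaction. The Shh effect in knockout minus that in wild type was above 0, a smaller fall or a larger rise in knockout, for 28 of 31 genes, against 50.2% of all genes, with a median of 0.46. The median was 0.27 without wild type replicate 3 (25 of 31 above 0) and 0.65 without wild type replicate 1 (29 of 31). None passed the adjusted threshold in limma or in the blocked fit, and 0.00877% of all genes did. At an unadjusted p of 0.05, 10 were above 0 (2.88% of all genes) and 1 below (2.04%), Fgfr3 at -1.28. Acsbg1 had the smallest p, with a difference of 1.18 (SE 0.24, adjusted p = 0.478), followed by Gdf10 at 1.03 (SE 0.24, adjusted p = 0.590) and Sparcl1 at 0.63 (SE 0.15, adjusted p = 0.590). A difference in the Shh response between genotypes was therefore not detected for any single glial gene. The interaction uses the same arrays as the genotype and Shh comparisons, so these values are not independent of each other.

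A second list of 40 astroglial genes gave a like picture. In knockout cultures 28 of its 36 tested genes fell with Shh and 0 rose, and in wild type cultures 29 fell and 1 rose, with medians of -1.35 and -1.83. The 3 with the smallest adjusted p were the same in both genotypes. Ednrb, an endothelin receptor of glia, fell by 2.34 in knockout and 3.06 in wild type cultures (adjusted p = 7.52e-06 and 1.12e-06 in limma). Timp4, a metalloproteinase inhibitor, fell by 2.57 and 2.86 in knockout and wild type cultures, and Tril, a Toll-like receptor accessory protein, by 2.22 and 2.64. Cd44, a hyaluronan receptor, rose by 0.73 in wild type cultures (adjusted p = 0.0465). Ednrb was also higher with Shh in knockout cultures (1484 and 1183) than in wild type ones (778 and 720). Its difference was 0.82 (SE 0.14, adjusted p = 0.0402, and 0.0767 in the blocked fit), and its average over both conditions was 0.46 (adjusted p = 0.0466, and 0.0690 blocked).

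Of 10 tested genes of reactive astrocytes, those that respond to injury and inflammation, 2 rose and 2 fell with Shh in knockout cultures, against 11.0% of all genes higher and 17.0% lower. In wild type cultures 2 rose and 4 fell, against 33.8% of all genes changed in either direction. With so few genes, neither count is read as more than the share over all genes. S100a10, an annexin partner, had 655 and 473 in knockout cultures with Shh, against 107 to 184 in untreated knockout cultures, and rose by 2.02 (adjusted p = 7.38e-04). S100a10 rose by 2.05 in wild type cultures. Cp, ceruloplasmin, rose by 1.12 in knockout and 1.45 in wild type cultures. Ptx3, a pentraxin, fell by 0.91 and 1.10, and Hspb1, a small heat shock protein, by 1.08 and 1.32 in knockout and wild type cultures. Serping1, an inhibitor of complement, fell by 0.52 in wild type cultures. No gene of this list passed between genotypes with Shh.

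Of 26 tested gliogenic signals and effectors, 3 fell and 1 rose in knockout cultures, and 8 fell and 1 rose in wild type cultures. Stat3, which drives Gfap transcription downstream of gliogenic cytokines, rose by 0.50 in knockout cultures (adjusted p = 0.0190). Rbpj, the DNA-binding partner of Notch, rose by 0.28 in wild type cultures (adjusted p = 0.0498, and 0.0572 blocked). Fgfr2, another fibroblast growth factor receptor, fell by 1.52 in knockout and 1.68 in wild type cultures. Notch1, a Notch receptor, fell by 1.30 and 1.80, and its target Hes1 by 0.92 and 1.34, in knockout and wild type cultures. The share of genes lower in this list in knockout cultures was below the 17.0% of all genes, and in wild type cultures it was above the 19.8%.

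**Figure D5:**
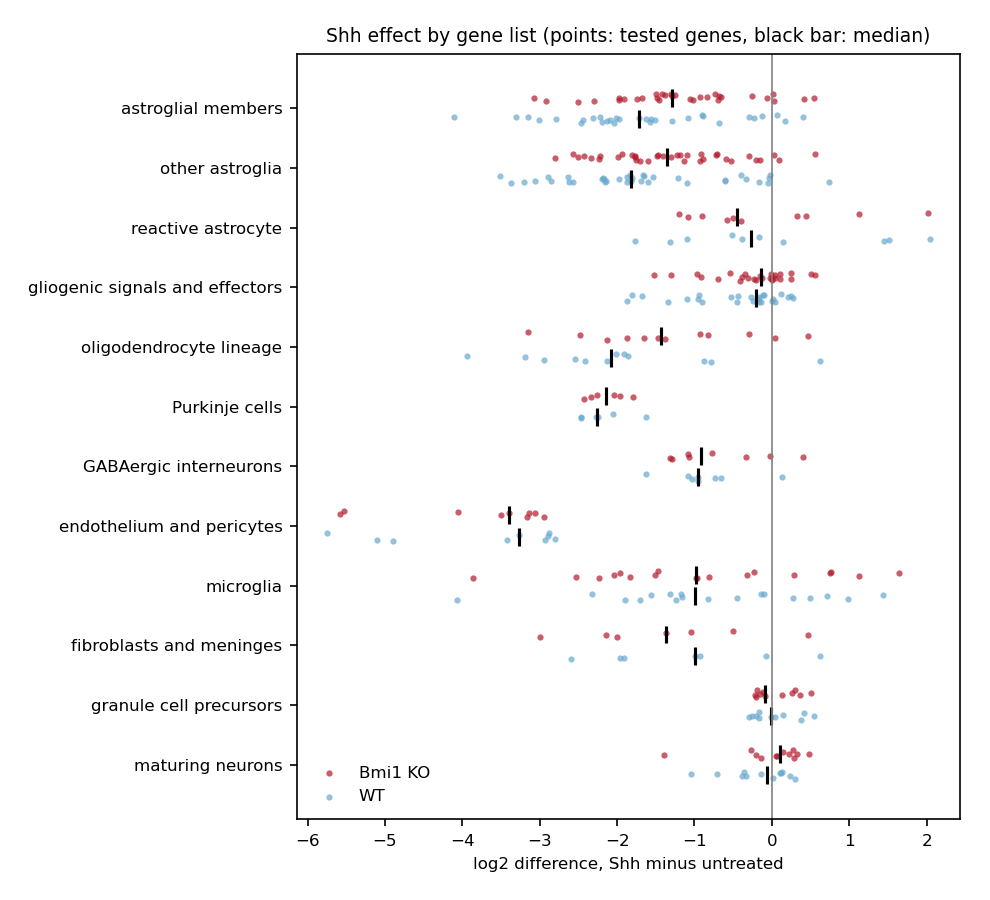
Each dot is a tested gene and each black bar the median of a list, for the Shh effect in knockout (red) and wild type (blue) cultures, in log2. The medians of the glial and other astroglial lists lie below 0, with single genes above it. Medians for oligodendrocytes, endothelium, Purkinje cells, interneurons, microglia and fibroblasts also lie below 0. Granule precursor and maturing neuron medians lie near 0.

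Markers of several other cell types were lower in the same arrays, and their part in the glial result was not tested. All 9 tested markers of endothelium and pericytes fell in both genotypes. Their 13 measured genes summed to 497 and 519 in knockout cultures with Shh, against 8297 to 9983 in untreated ones, and to 524 and 667 in wild type cultures with Shh, against 8178 to 9564 in untreated ones. Pecam1, a defining endothelial gene, was at the floor on all 4 Shh arrays. Of 12 oligodendrocyte lineage genes, 9 fell and 1 rose in knockout and 11 fell and 1 rose in wild type cultures. The gene that rose was Pdgfra, by 0.47 in knockout and 0.62 in wild type cultures. The 15 measured genes of this list summed to 14825 and 19063 in knockout cultures with Shh, against 30016 to 41000 in untreated ones. In wild type cultures their sum was 13408 and 13833 with Shh, against 37851 to 40952 without. With Shh, 3 of the 12 were higher in knockout cultures relative to wild type ones (Olig1, Sox10 and Cspg4), and 2 of them in the blocked fit.

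All 6 Purkinje cell markers fell in both genotypes, with sums of 7315 and 9314 in knockout cultures with Shh, against 26257 to 47807 in untreated ones, and 6904 and 7328 in wild type cultures with Shh, against 22000 to 36531 in untreated ones. Of 8 markers of GABAergic interneurons, 5 fell in knockout and 7 in wild type cultures. Of 18 microglial markers, 9 fell and 4 rose in knockout cultures and 9 fell and 3 rose in wild type cultures. Their 19 measured genes summed to 5386 and 7144 in knockout cultures with Shh, against 9624 to 10631 in untreated ones, and to 8499 and 8636 in wild type cultures with Shh, against 10995 to 15724 in untreated ones. Of 7 markers of fibroblasts and meninges, 5 fell and 1 rose in knockout and 4 fell and 1 rose in wild type cultures. The gene that rose was again Pdgfra, which is on this list and on the oligodendrocyte list. Col1a1 was at the floor on both knockout arrays with Shh.

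Genes of the granule lineage moved little beside these. Of 11 granule precursor genes, 1 rose in each genotype, Mycn, and none fell (3 rose in wild type cultures in the blocked fit), with medians of -0.09 in knockout and -0.01 in wild type cultures. Their sum was 71742 and 71750 in knockout cultures with Shh, against 63811 to 70456 in untreated ones. In wild type cultures it was 72993 and 74865 with Shh, against 63060 to 78478 without. Of 12 genes of maturing neurons, 1 fell in knockout and 3 in wild type cultures. Of 6 Shh targets, 4 rose in each genotype, with Ptch1 at 0.92 in knockout and 0.98 in wild type cultures.

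Scaling changes which weak differences can be given a direction. Setting each array to a common median moved the median over all genes by 0.29 in knockout and 0.35 in wild type cultures in the Shh comparisons. Under it 22 glial genes fell and 3 rose in knockout cultures, and 24 fell and 2 rose in wild type cultures. Vim then passed as higher in both genotypes (0.31 in knockout and 0.52 in wild type cultures), Glul passed in neither, Sox2 and Kcnj10 did not pass in knockout cultures, and the differences of Slc1a2 and Dbi turned positive without passing.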

How the data were processed

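Total RNA (1.5 µg) of 10 cultures was measured on 1 array each. The deposited values are signal intensity on a linear scale, which the authors made with MAS5. The submitters' processing notes also name GCOS 1.2. The values were used as deposited, since every array had a 2% trimmed mean of 500. The table held 45101 probe sets, of which 64 controls were left out. Of the others, 34945 had 1 gene symbol in the platform annotation, 932 several and 9160 none, and 34741 matched RefSeq (GRCm38.p6) by Entrez identifier, with 0 symbols changed.

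Signals under a floor, the 25th percentile of all values (20.9), were set to that floor before taking log2. A gene's brightest probe set stood for it and was tested if the mean log2 reached the median of all probe sets (6.25, a signal of 76.1). A mean per group was fitted to all 10 arrays with limma 3.58.1 in R 4.3.3 (lmFit, eBayes, 6 residual and 3.11 prior degrees of freedom). The 6 comparisons were two-sided, with Benjamini-Hochberg adjustment over 11405 genes and a threshold of 0.05. The fit was also run on simulated data with independent noise on each array and 200 genes shifted in the wild type Shh arrays only. The data have many more changed genes and arrays that deviate together, so the simulation does not check the fit under those conditions. Folds are those of the fitted log2 means, with arrays below the floor set to it, and are not bounds. The p-values measure the spread between arrays, whose number limits the precision, and signals of different probe sets were not compared.

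The labels name no pairs. Wild type and knockout arrays with consecutive numbers in their titles deviated together, with correlations over genes of 0.278, 0.120 and 0.218 untreated (other pairings -0.265 to 0.0529) and 0.160 with Shh, and so were taken as pairs from the data alone. A second fit, called blocked, held the pairs fixed for genotype effects and the interaction (3 residual degrees of freedom) and random for Shh effects (consensus correlation 0.289).

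Members and gene lists were chosen with earlier results of these data known. Values on every array are given for the 14 members with the largest Shh effect, for those passing between genotypes, and for the brightest and dimmest member by untreated wild type signal. Of the other astroglial, reactive and gliogenic lists, up to 3 genes with the smallest adjusted p in each direction are named. For lists of other cell types only counts, sums and single genes chosen after their values were seen are given. Alternatives were median scaling, quantile normalization, no floor, a floor of 50, no filter, the mean of all probe sets, only the arrays compared, the block, and leaving out arrays.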

Additional observations from a re-analysis of the deposited data

How the results depend on the processing

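The Shh effects kept their counts within narrow bounds, since 23 to 27 members passed in knockout and 24 to 26 in wild type cultures under the alternatives, and 20 to 27 and 23 to 26 when 1 array was left out. No called member changed sign. Between genotypes with Shh, where 2 members passed, 1 passed with median scaling and 1 without the filter. There were 0 with quantile normalization, with only the arrays compared (3 genes of all tested), with the replicate block of consecutive arrays, and without replicates 1 and 6, and 0 to 3 when 1 array was left out. Averaged over both conditions, 0 members passed, but 2 did with a floor of 50 and 0 to 3 when 1 array was left out (3 without replicate 3, 1 without replicate 8, 1 without replicate 10). Untreated genotypes and the interaction gave 0 under all alternatives that could be run. The block changed no other call of a member beside Gdf10, Sparcl1 and Sox9. Over all genes, median scaling gave 5475 calls for Shh in knockout and 6424 in wild type cultures, against 3199 and 3855, and without replicate 8 or 10 the knockout count was 1893 or 2045, without replicate 9 the wild type count 2380. With Shh, 83 genes differed between genotypes, and 50 to 52 under the block, quantile normalization or without replicates 1 and 6. Leaving out 1 array gave 29 (replicate 8) to 91 (replicate 3), with 32 without replicate 9, 54 without 7 and 55 without 4 or 10. Untreated, 43 differed, 23 under the block, 67 with a floor of 50, 10 without replicates 1 and 6, 25 without replicate 1 and 19 without 6. Averaged over both conditions, 176 differed, 80 without replicates 1 and 6, and 82 (replicate 9) to 219 (replicate 3) when 1 array was left out, with 84 without replicate 8, 98 without 2, 103 without 5, 107 without 6 and 116 without 4. The cause of these changes was not tested. With 2 arrays in each Shh group, small differences could not be detected.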
